A study of Mus musculus with 2 samples.

Results

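The miR-200 family and the miR-183 cluster make up 8 microRNA hairpin genes in 3 genomic clusters, out of 1973 microRNA genes in the tables. They are Mir200b, Mir200a and Mir429 on chromosome 4, Mir200c and Mir141 on chromosome 6, and Mir183, Mir96 and Mir182 elsewhere on chromosome 6. They were found by gene symbol, through the Ensembl identifier of each row, and all 8 were present in both tables. The set was selected on earlier results of these data, in which its counts were higher in one pup than in the other, so the levels and ratios of its members are given as a description and without a test. The data are small RNA reads from 2 newborn B6NCrl mice (postnatal day 0, sex not collected), with 1 forebrain and 1 library for each pup. Pup 1 and pup 3 form 1 group for which no treatment, transgene or agent is named, and both carry the same donor record in the labels. No condition is compared, and a ratio between the pups is a ratio between 2 single libraries.

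The miR-200 family is known for holding cells in an epithelial state by repressing the transcription factors Zeb1 and Zeb2, which in turn repress the family. In the mouse it is known from surface, gut and glandular epithelium, and from the olfactory epithelium, where it takes part in the maturation of olfactory neurons. The miR-183 cluster is transcribed as a single RNA and is known from sensory cells, among them photoreceptors, hair cells of the inner ear and sensory neurons, and changes in the seed of Mir96 cause hearing loss. Small RNA sequencing counts mature microRNAs, which are cut from hairpins, so the targets of these microRNAs were not measured. In bulk tissue, more cells of a type and more of a microRNA per cell cannot be told apart.

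The mature sequences show which members share a target rule. The seed, bases 2 to 8 counted from the 5′ end, sets most of the target choice of a microRNA and is in capitals. RefSeq (GRCm38.p6) held all 8 genes. The 3p arm is shown for the miR-200 family and the 5p arm for the miR-183 cluster, the arms after which these families are grouped.

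miR-200b-3p: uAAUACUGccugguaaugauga
miR-200c-3p: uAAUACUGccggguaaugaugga
miR-429-3p: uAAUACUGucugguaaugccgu
miR-200a-3p: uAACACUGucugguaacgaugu
miR-141-3p: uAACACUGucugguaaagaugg
miR-183-5p: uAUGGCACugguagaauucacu
miR-96-5p: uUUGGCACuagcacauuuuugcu
miR-182-5p: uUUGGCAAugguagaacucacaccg

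The miR-200 family falls into 2 seed groups that cross its 2 clusters. miR-200b-3p, miR-200c-3p and miR-429-3p share a seed, and miR-200a-3p and miR-141-3p share another, which differs from the first by U4C (position counted from the 5′ end, miR-200b-3p first). Among 1738 mature sequences in the RefSeq table, no other carried either seed. In the miR-183 cluster each member has a seed of its own. The seed of miR-183-5p differs from that of miR-96-5p by A2U, and that of miR-96-5p from that of miR-182-5p by C8A. Of the other mature sequences in the table, only miR-1271-5p shared the seed of miR-96-5p, and none shared those of miR-183-5p and miR-182-5p. Over the whole mature sequence, miR-183-5p and miR-182-5p were identical at 18 of 22 compared positions in spite of their seeds, against 13 of 22 for miR-183-5p and miR-96-5p. The most alike pairs of the miR-200 family, miR-200b-3p with miR-200c-3p and miR-200a-3p with miR-141-3p, were identical at 20 of 22 positions.

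The members were compared with other annotated hairpins by exact matches only, so copies with mismatches were not searched for. None of the 16 mature sequences of the 8 genes was identical to one of another gene. The longest stretch that a member hairpin shared with any of 2201 other hairpins, on either strand, was 17 nucleotides, between Mir200a and Mir141. It was 14 nucleotides between Mir200b and Mir200c, and 11 to 14 nucleotides for the other members with their closest hairpins. A read that covers only the stretch shared by Mir200a and Mir141 matches both, and such multimapping reads were kept apart by the authors in a tally of their own.

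All hairpins lie on the minus strand. Gene identifiers are printed as deposited, with the version of the authors' annotation, and only the coordinates are those of release M21. In GRCm38 (annotation release M21), Mir200b (ENSMUSG00000065549.2) lies on chromosome 4 from 156055681 to 156055750, Mir200a (ENSMUSG00000065400.1) from 156054896 to 156054985 and Mir429 (ENSMUSG00000065427.1) from 156053905 to 156053987. These 3 lie in introns of the tubulin tyrosine ligase-like gene Ttll10. The noncoding gene Gm13648 spans them on the same strand, with Mir200b and Mir200a in its introns and Mir429 overlapping an exon. Mir200c (ENSMUSG00000065462.2, 124718322 to 124718390) and Mir141 (ENSMUSG00000065474.1, 124717914 to 124717985) lie on chromosome 6 within an intron of the noncoding gene Gm15884, 336 bases apart, and Mir141 also overlaps an exon of the unclassified gene model Gm29008. Mir183 (ENSMUSG00000065619.2, 30169668 to 30169737), Mir96 (ENSMUSG00000065586.1, 30169446 to 30169551) and Mir182 (ENSMUSG00000076361.1, 30165918 to 30165992) lie in no annotated gene, between the coding genes Nrf1 and Ube2h on chromosome 6. Mir183 and Mir96 are 116 bases apart, and Mir182 follows 3453 bases further on.

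**Figure D1:**
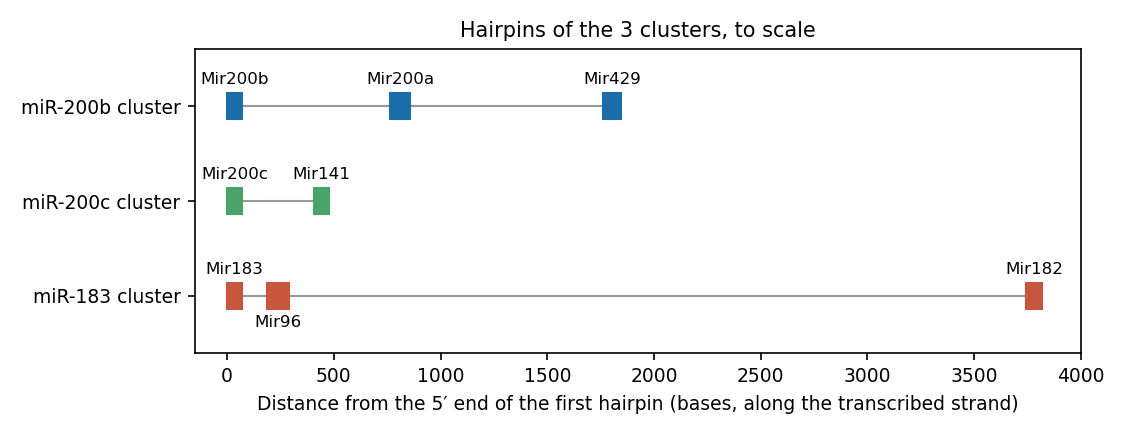
Map of the 3 clusters, drawn to scale. The horizontal axis is the distance in bases from the 5′ end of the first hairpin along the transcribed strand, and each box is a hairpin. Mir183 and Mir96 lie close together, and Mir182 begins 3745 bases from the start of Mir183.

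The start of Gm13648 is the annotated start of an RNA that spans Mir200b, Mir200a and Mir429. Whether these hairpins are cut from it in these samples was not tested. Zeb factors are known to bind E-boxes of the letters CACCTG. The 300 bases around that start (250 before to 50 after, GRCm38.p6, chr4:156059753-156060052, minus strand, from RefSeq) are shown 5′ to 3′ with each such match in capitals.

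Gm13648: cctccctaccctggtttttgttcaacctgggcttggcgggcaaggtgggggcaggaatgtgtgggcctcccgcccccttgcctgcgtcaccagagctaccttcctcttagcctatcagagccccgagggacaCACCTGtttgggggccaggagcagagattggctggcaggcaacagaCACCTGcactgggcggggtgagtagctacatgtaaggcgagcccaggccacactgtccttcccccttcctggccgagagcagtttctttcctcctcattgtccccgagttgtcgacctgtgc

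The window held 2 matches to CACCTG, which begin 118 and 72 bases before the start. Searched on both strands, 20.2% of 32851 promoter windows of this length held at least 1 match, and 2.88% held 2 or more. The match describes the letters, and binding was not measured here. The table held no window for the member genes themselves.

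The libraries held 22470992 reads in pup 1 and 18798326 in pup 3, of which 9037087 (40.2%) and 7678662 (40.8%) were assigned to microRNA genes. Multimapping reads took 43.0% and 43.5%. The neuronal Mir137 stood at 24345 and 33595 CPM in pup 1 and pup 3, where CPM is the count per 1000000 reads assigned to genes. MicroRNAs of the Hox clusters, which mark tissue behind the forebrain, summed to 196 and 148 CPM over 6 hairpins. Multimapping reads are not in these sums, which are too low wherever another gene carries the same mature sequence.

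The Mir200b cluster supplied most of the reads of the set. Its share of all assigned reads was 0.325% in pup 1, 0.919% in pup 3 and 0.622% ± 0.420 on average (SD, n = 2). Mir429 was the most abundant member, with 20509 reads or 2269 CPM in pup 1 and 42297 reads or 5508 CPM in pup 3 (mean 3889 ± 2290 CPM). It ranked 80th among all genes in pup 1 and 37th in pup 3. Mir200b had 7411 reads (820 CPM) in pup 1 and 23342 reads (3040 CPM) in pup 3, a mean of 1930 ± 1570 CPM. Mir200a, between them on the chromosome, had far fewer reads than either neighbour in both pups. Its counts were 1478 (164 CPM) and 4941 (643 CPM), a mean of 404 ± 339 CPM.

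The Mir200c cluster was scarcer, with a share of 0.0432% in pup 1 and 0.131% in pup 3 (mean 0.0869% ± 0.0619, SD, n = 2). Mir200c had 3170 reads (351 CPM) in pup 1 and 7877 reads (1026 CPM) in pup 3. Mir141 was the least abundant of the 8 in both pups, with 733 and 2158 reads. Its level was 81.1 CPM in pup 1 (95% exact Poisson interval 75.3 to 87.2) and 281 CPM in pup 3 (269 to 293). These intervals cover counting error only, and the labels speak of no molecular identifiers.

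The share of the miR-183 cluster was 0.0813% in pup 1 and 0.251% in pup 3 (mean 0.166% ± 0.120, SD, n = 2). In pup 1 Mir182 and Mir183 were nearly level, with 3090 reads (342 CPM) and 2971 reads (329 CPM). In pup 3 Mir182 had 10714 reads (1395 CPM) and Mir183 had 4806 reads (626 CPM). Mir96, the member known from inherited deafness, had 1288 reads (143 CPM) in pup 1 and 3768 reads (491 CPM) in pup 3. Every member of the 3 clusters was thus lower in pup 1 than in pup 3, as the choice of the set implies.

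**Figure D2:**
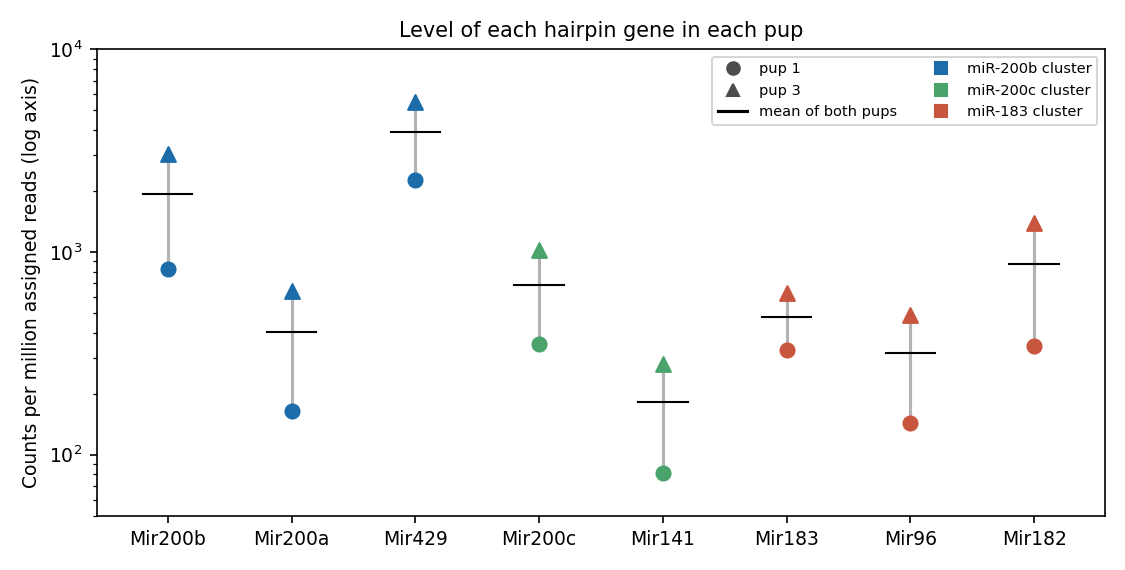
Level of each member in each pup, in CPM on a log axis. Circles are pup 1, triangles pup 3, and bars the mean of both, with colours for the 3 clusters. Mir429 was highest in both pups (2269 and 5508 CPM) and Mir141 lowest (81.1 and 281 CPM).

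Ordered by mean CPM, the members ran Mir429, Mir200b, Mir182, Mir200c, Mir183, Mir200a, Mir96 and Mir141. The ranges of all 7 neighbouring pairs in this order overlapped between the pups. Within a pup the order was steadier, and 4 members, Mir429, Mir200b, Mir96 and Mir141, held the same place in both. Mir182 and Mir200c exchanged places between the pups, as did Mir183 and Mir200a. Reads are counted per hairpin and were not divided by length, since a read covers a mature microRNA and not the hairpin. Hairpin lengths ran from 69 to 106 bases.

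Set by seed, reads of the miR-200 family came mostly from hairpins of the miR-200b-3p seed. Mir200b, Mir200c and Mir429 together held 93.4% of the family's reads in pup 1 (95% exact binomial interval 93.1 to 93.6) and 91.2% in pup 3 (91.0 to 91.4). Per read of Mir200a or Mir141 there were 14.1 reads of these in pup 1 and 10.4 in pup 3. The counts pool both arms of a hairpin, so these are shares of hairpins and not of the seeds themselves.

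The make-up of the clusters differed between the pups, and these shares within a library do not depend on how the libraries are scaled. The miR-183 cluster differed most. Mir183 held 40.4% of its reads in pup 1 (95% exact binomial interval 39.3 to 41.6) and 24.9% in pup 3 (24.3 to 25.5). Mir182 held 42.0% (40.9 to 43.2) and 55.5% (54.8 to 56.3), so that there were 1.04 reads of Mir182 per read of Mir183 in pup 1 and 2.23 in pup 3. Mir96 held 17.5% and 19.5%. Mir183 and Mir96, which lie 116 bases apart, stood at 2.31 reads to 1 in pup 1 and 1.28 to 1 in pup 3.

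In the Mir200b cluster, Mir429 held 69.8% of reads in pup 1 (69.2 to 70.3) and 59.9% in pup 3 (59.6 to 60.3). Mir200b held 25.2% (24.7 to 25.7) and 33.1% (32.7 to 33.4), and Mir200a held 5.03% (4.78 to 5.28) and 7.00% (6.81 to 7.19). Mir200b and Mir200a kept close to the same proportion, with 5.01 reads of Mir200b per read of Mir200a in pup 1 (4.74 to 5.31) and 4.72 in pup 3 (4.58 to 4.87). Their intervals overlapped, while those of Mir429 per read of Mir200b, 2.77 (2.69 to 2.84) and 1.81 (1.78 to 1.84), did not. In the Mir200c cluster the shares were closer, with 81.2% (80.0 to 82.4) and 78.5% (77.7 to 79.3) for Mir200c. For each of the 8 hairpins the intervals of its share in the 2 pups did not overlap. With 1 library per pup they could not be set against a spread between further libraries of the same pup.

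**Figure D3:**
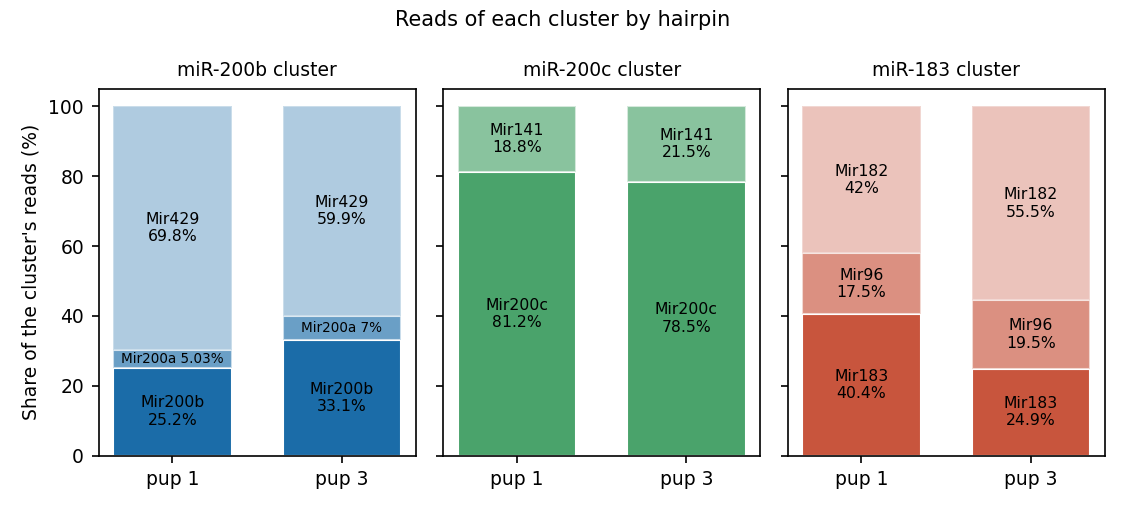
Share of each cluster's reads held by each hairpin, in percent, as stacked bars for pup 1 and pup 3. Mir183 fills 40.4% of its cluster in pup 1 and 24.9% in pup 3, while the split between Mir200c and Mir141 is much alike in both.

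The ratio of pup 3 over pup 1 is the measure on which the set was chosen. It was computed on TMM-scaled counts, a scaling that sets the bulk of genes level between libraries, and is given on the log2 scale. Mir182 had the highest ratio of the 8, 2.23 (95% exact binomial interval 2.17 to 2.29), a 4.69-fold difference. Mir200a had 2.18 (2.09 to 2.26), Mir200b 2.09 (2.05 to 2.13), Mir141 1.99 (1.87 to 2.12), Mir96 1.98 (1.89 to 2.08) and Mir200c 1.75 (1.69 to 1.81). Mir429 with 1.48 (1.46 to 1.50) and Mir183 with 1.13 (1.06 to 1.20) had the lowest. The most abundant hairpin of the miR-200 family thus had the lowest ratio in its family, and Mir183 had the lowest in its cluster.

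Ratios were compared over the 310 genes whose mean reached 10 CPM, and all 8 members passed this minimum. All 8 were higher in pup 3 by 2-fold or more, as were 24 of the 310 genes (7.74%). In the other direction, 12 genes (3.87%) were lower by 2-fold or more, with no member among them. Because the set was chosen with these ratios known, nothing is read from its count. The members' median ratio was 1.99, or 3.97-fold, and the median over all 310 genes was -0.03. The 25th and 75th percentiles over all genes were -0.36 and 0.35, and the 95th was 1.11. The 6 highest ratios of all belonged to Mir182, Mir200a, Mir200b, Mir141, Mir96 and Mir200c, while Mir429 ranked 8th and Mir183 15th.

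**Figure D4:**
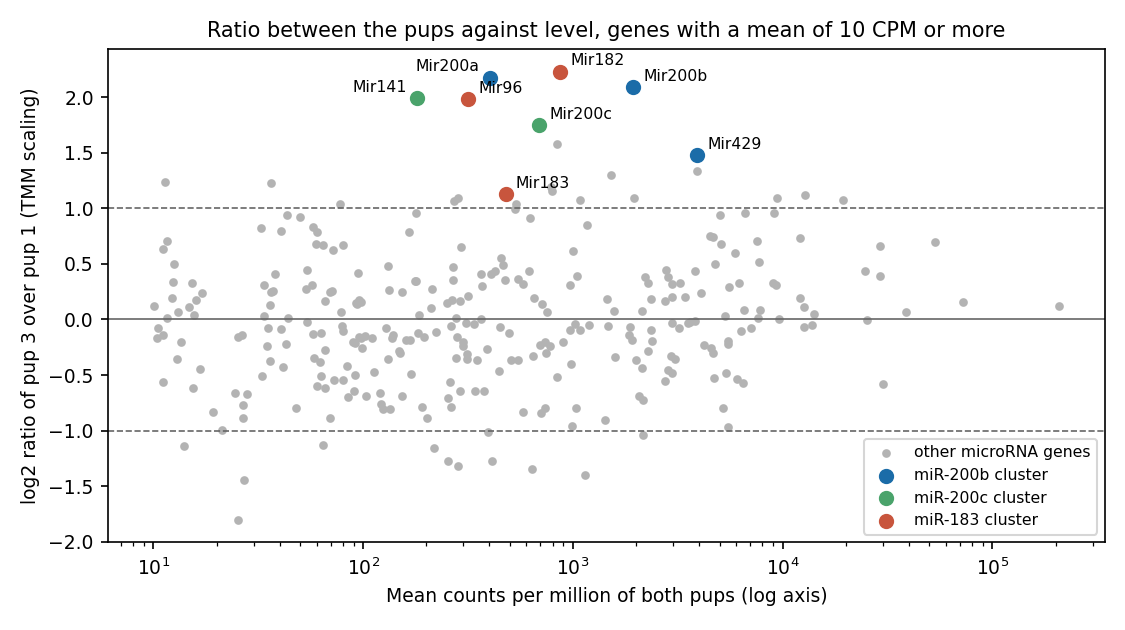
Log2 ratio of pup 3 over pup 1 against mean CPM of both pups (log axis), for 310 genes. Dashed lines mark a 2-fold difference, grey points are other genes and coloured points the members, which span mean levels from 181 to 3889 CPM and ratios from 1.13 to 2.23.

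Summed by cluster, the 3 loci stood close together. The log2 ratio was 1.70 (1.68 to 1.72) for the Mir200b cluster, 1.80 (1.74 to 1.85) for the Mir200c cluster and 1.83 (1.79 to 1.87) for the miR-183 cluster. The spread within a cluster, from 1.13 to 2.23 among the miR-183 members, was wider than that between clusters. Outside the set, the 5 genes of the miR-17-92 polycistron past 10 CPM also differed, from 0.18 for Mir18 to 1.12 for Mir17. By seed, Mir200a and Mir141 together had 2.12 (2.05 to 2.19), and Mir200b, Mir200c and Mir429 had 1.68 (1.66 to 1.70).

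How the libraries are scaled moves every ratio alike. With total counts in place of TMM, the log2 ratios shifted by -0.20, and the median over all genes was -0.23. The members then ran from 0.93 for Mir183 to 2.03 for Mir182, and 7 of 8 were at least 2-fold higher, against 12 of all 310 genes. Mir183 is the member that falls below 2-fold under that scaling. The distance of the members' median from that of all genes was 2.02 under both.

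Few reads of the members lay on the opposite strand in either pup. Reads opposite to the hairpin numbered 5 of 40650 in pup 1 and 12 of 99903 in pup 3, while over all genes 2.69% and 1.91% of assigned reads lay opposite. The GC content of the member hairpins ran from 45.7% to 55.1%, with a median of 50.5%, against 50% over the 310 genes. Across those genes the ratio and GC content had Pearson's r of -0.14 and Spearman's rho of -0.14, given as a description, since genes of 2 libraries share depth and scaling.

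The 5 other genes with a ratio nearest to the members' median, among 250 whose mean reached 50 CPM, were also the 5 highest. This was bound to be so, since none of the 250 had a ratio above that median. Likeness here is the difference in log2 ratio over only 2 samples. Mir16-2, of the cell cycle family miR-15/16, was the nearest with 467 CPM in pup 1 and 1218 in pup 3, a log2 ratio of 1.58. Mir16-1 had 1.33, Mirlet7c-2 1.29, Mir181b-2 1.19 and Mir28a 1.15. They lie on chromosomes 3, 14, 15, 2 and 16. Another gene carries an identical mature sequence for Mir16-2, Mir16-1, Mirlet7c-2 and Mir181b-2, so their counts are uncertain, and none does for Mir28a. Of 302 genes outside the set, 16 reached a 2-fold higher level in pup 3, 7 had a ratio above that of Mir183, and none had one above that of Mir182.

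Markers of other cell types were read from 11 lists, of which 43 genes passed the minimum of 10 CPM. Identical mature sequences are carried by another gene for 12 of the 40 that RefSeq held, so that their counts are uncertain, among them Mir7-1, Mir128-1, Mir138-1, Mir9-3 and Mir194-2. Epithelial and skin markers outside the miR-200 family are given first. Mir203 of keratinocytes stood at 1642 CPM in pup 1 and 1502 in pup 3, with a TMM-scaled log2 ratio of 0.07. CPM values are scaled by total counts, under which the log2 ratio of Mir203 was -0.13, so the signs differ. Mir31 had -0.19 with 182 and 139 CPM, and Mir205 had 0.24 with 16.8 and 17.3 CPM. None of these 3 was 2-fold different, their median was 0.07, and they summed to 1841 CPM in pup 1 and 1659 in pup 3. With total counts the median was -0.13.

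Endocrine and neuroendocrine markers had a median of 0.11, with 0 of 4 at least 2-fold higher. Mir7b had 0.39, Mir7-1 0.44, Mir7-2 -0.46 and the islet and pituitary microRNA Mir375 -0.16. Like Mir7-1, Mir7-2 has a mature sequence that another gene carries, so its count is uncertain too. Choroid plexus and multiciliated markers, which stand for epithelia within the forebrain, had a median of -0.24, with 0 of 4 higher by 2-fold. Mir449a of multiciliated cells had -0.22, Mir204 of choroid plexus -0.26 and Mir34b -0.47, while Mir34c, also of multiciliated cells, had 0.33. Mir449b, Mir449c and Mir211, which were under 10 CPM, had 0.37, 0.40 and 0.05, and the list summed to 13902 CPM in pup 1 and 11022 in pup 3. Mural and mesenchymal markers had a median of 0.09 (0 of 4), with Mir143 at 0.03, Mir145a at 0.04, Mir214 at 0.14 and Mir199b at 0.79. Endothelial Mir126a had 0.06.

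Blood markers had a median of 0.28, with Mir451a of red cells at 1.07 as 1 of 5 past 2-fold, and Mir150 of lymphocytes at 0.28. Mir144, which is also known from red cells, was at -0.67, with 36.3 CPM in pup 1 and 19.8 in pup 3. Hox cluster markers had a median of -0.22 (0 of 2), with Mir10b at 0.17 and Mir10a at -0.62. Muscle markers had a median of -0.84 (0 of 2), with Mir206 at -0.89 and Mir208b at -0.80. In that list 3 of the 7 hairpins, Mir133a-1, Mir133a-2 and Mir1a-1, were at 0 in both pups. Multimapping reads are not in these counts, and among markers identical mature sequences were looked for only past 10 CPM. A count of 0 is therefore not read as absence. Neuronal markers had a median of 0.63, with Mir137 at 0.66 and Mir128-1 at 0.60, and 2 of 8 past 2-fold, Mir138-1 at 1.07 and Mir9-3 at 1.04. Liver, gut and pancreas markers had a median of 0.01, with Mir194-2 at 1.04 as 1 of 5 past 2-fold, Mir192 at -0.15 and Mir216b lower by over 2-fold at -1.14. The miR-17-92 polycistron had a median of 0.39, with Mir17 at 1.12 as 1 of 5 past 2-fold and Mir20a at 0.94.

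In all, 5 of the 43 marker genes reached a 2-fold higher level in pup 3, and 7 lists had none. The highest of the 11 medians was 0.63, for neuronal markers. The highest of these 43 genes, Mir17, had 1.12, close to the lowest ratio of any member, 1.13 for Mir183. Among marker genes under 10 CPM, Mir124a-1 had 1.75 with 45 reads in pup 1 and 113 in pup 3. Mir199a-1 had 3.38 with 0 and 4 reads. The others under 10 CPM were all below Mir17, down to -1.34 for Mir615. The members were chosen on this ratio, so their place above the list medians was fixed beforehand. Of the 8 medians above 0, only 3, those of blood, neuronal and miR-17-92 genes, were above 0 with total counts, where the 11 medians ran from -1.04 to 0.43 and 0 of the 43 genes reached a 2-fold higher level. Mir206 at -1.09 and Mir216b at -1.34 were then lower by over 2-fold. Olfactory, retinal or inner ear markers other than the members themselves were not among the lists, and the part of such cells in the ratio was not tested.

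**Figure D5:**
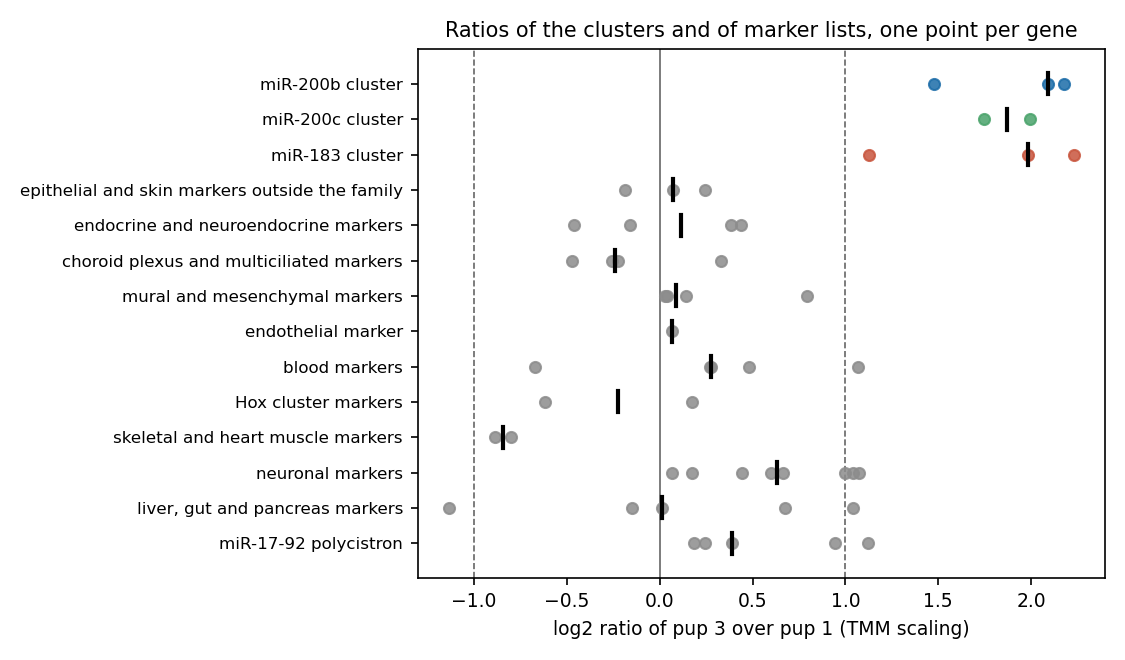
Log2 ratios of pup 3 over pup 1 for the 3 clusters (coloured) and 11 marker lists (grey), 1 point for each gene that passed 10 CPM and a bar at each median. Dashed lines mark a 2-fold difference. Epithelial and skin markers outside the family lie between -0.19 and 0.24, below all members, which were chosen on this ratio.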

How the data were processed

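Small RNA libraries of 2 pups were compared as 1 group. Each deposited table lists raw read counts by microRNA gene. The authors made them on mm10 with annotation M4, per the notes beside each table, and neither an aligner nor a counting tool is named (not given in the sources used here). Values were read from the first count column, which in every gene equals the sum of the other columns, read as the sense and opposite strand. Tallies that name no gene stayed out of library sizes. Of 1973 identifiers, 1894 matched GENCODE M21 (GRCm38) with versions dropped. Coordinates come from M21 and may differ from M4 for Mir200b and Mir200c, whose identifier versions changed.

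Ratios used counts with 0.5 added and TMM factors of edgeR 4.0.16 (1.07 for pup 1, 0.933 for pup 3), and were checked on counts drawn with known changes. Genes were compared from a mean of 10 CPM, and a 2-fold ratio was the size used for counts. Intervals are exact at 95% and cover counting error only. No test was run, since 1 group has no contrast.

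The members, the 11 marker lists and the rules were chosen with earlier results of these data known. The text names the members, the 5 other genes nearest to their median ratio and the 5 highest (both from a mean of 50 CPM), and the 2 most abundant genes in each list. Any further gene was picked with its values in view, as were the list values under total counts. Alternatives were DESeq2 1.42.0 size factors, total counts, the sense column, 5 counts added, other minimums, all reads as denominator, and each pup alone. Scripts ran in Python 3.11.15 (matplotlib 3.10.9, pandas 2.3.3, scipy 1.17.1, numpy 2.4.6) and R 4.3.3.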

Additional observations from a re-analysis of the deposited data

How the results depend on the processing

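Under total counts the log2 ratios of pup 3 over pup 1 were 1.89 for Mir200b, 1.98 for Mir200a, 1.28 for Mir429, 1.55 for Mir200c, 1.79 for Mir141, 0.93 for Mir183, 1.78 for Mir96 and 2.03 for Mir182. Each was outside its counting interval under TMM scaling, as that scaling moves all ratios by -0.20. The number of all genes at least 2-fold higher was then 12 rather than 24, both of 310. It was 112 under TMM scaling when every gene with at least 1 count in either pup was included, since low counts enter. That set is larger than the 310, so 112 and 24 cannot be compared as shares. The ratios under DESeq2 size factors, the sense column and 5 added counts stayed within their counting intervals. Cluster shares and mean levels moved by less than the SD of the pups with either pup left out or the sense column used, which is bound to hold for 2 values when 1 is left out. With all reads of the library as denominator the mean shares were 0.253% for the Mir200b cluster, 0.0354% for the Mir200c cluster and 0.0677% for the miR-183 cluster. No ratio can be had with a pup left out. No paired analysis was possible because there is 1 group.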
